A study of Homo sapiens with 10 samples.

Results

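Target genes of p53 were followed in A549 cells and in their cisplatin-resistant derivative A549/DDP. They are CDKN1A, MDM2, GDF15, TP53I3, FAS, SESN1, ZMAT3, TP53INP1 and BTG2, 9 of the 58037 gene identifiers in the deposited tables. They were chosen by name, as genes that p53 is known to switch on, and the rule for choosing them uses no measured value, although earlier results of these data were known when it was set. A549 is a human lung adenocarcinoma line, and A549/DDP is a line of the same origin that resists cisplatin, a platinum drug that crosslinks DNA. The labels describe both as lung cancer lines of at most 10 passages in RPMI medium with fetal bovine serum. They name no drug, dose or oxygen setting for any library, and the inputs of A549/DDP give A549 as the line while their titles and cell type name the resistant line. Whether A549/DDP was grown in cisplatin before RNA was taken is not given in the sources used here. Each condition is represented by 1 cell line, so a difference between A549/DDP and A549 belongs to these lines and cannot be told apart from any other difference that arose between them.

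Each line had 2 input RNA libraries and 2 m6A-seq libraries. In m6A-seq, RNA fragments carrying N6-methyladenosine are pulled down with an antibody and sequenced beside the input, and a peak is a stretch where reads exceed the input. The inputs held 29225501 to 35286514 expected counts. Another 2 A549 inputs, for which no experiment is named, held 855034 and 982036 counts, of which 75.2% and 73.9% were mitochondrial, and they were kept out of the comparison. The labels do not say that replicates came from separate cultures, so p-values measure only the spread between these libraries, which may be technical. Of the 5 epithelial markers looked up, KRT8, KRT18 and CDH1 were expressed in every library and rose in A549/DDP. KRT19 was at 29.4 and 41.1 CPM (counts per 1000000) in A549 and at 7.19 and 0 CPM in A549/DDP, which did not pass the test (edgeR adjusted p = 0.221), and EPCAM was at 5.67 CPM or less in every library. Of the 5 alveolar type 2 markers looked up, SFTPC and SFTPA1 were at 0 in all 4 inputs. NAPSA was at 0.790 and 0 CPM in A549 and at 2.23 and 1.78 CPM in A549/DDP (edgeR adjusted p = 0.554). The 5 together summed to at most 3.27 CPM in an input. Summed fibroblast markers reached at most 27.2 CPM, leukocyte markers 4.76 and endothelial markers 0.641.

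The protein p53 is a transcription factor that is held at a low level in unstressed cells and accumulates after DNA damage, including damage by platinum drugs. It binds DNA as a tetramer at sites made of a pair of half-sites, and its targets halt the cell cycle, trigger apoptosis, aid repair and adjust metabolism. One target, MDM2, is a ubiquitin ligase that marks p53 for destruction and so closes a feedback loop. A549 cells are known to keep wild-type p53.

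To show what the target genes share in sequence, the RefSeq promoter windows of GRCh38.p14, from 250 bases before to 50 after a start site, were searched for a tandem of p53 half-sites with at most 3 mismatches in 20 letters and a spacer of at most 13 bases. The C and G core letters of both half-sites had to match, and since the half-site is its own reverse complement in pattern, both strands are covered. Of the 9 genes, 8 had a window, and 5 of these 8 held such a site. The best match of each is printed 5′ to 3′ with the 4 central letters of each half-site in capitals, on the plus strand except for SESN1 and ZMAT3, which are on the minus strand.
MDM2: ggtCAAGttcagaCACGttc
FAS: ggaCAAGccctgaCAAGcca
GDF15: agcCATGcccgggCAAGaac
SESN1: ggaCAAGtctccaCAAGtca
ZMAT3: gggCCTGctccgccaagcaCATGcgc
The MDM2 match lay at chr12:68808923-68808942 and the FAS match at chr10:88991309-88991328, each with 2 mismatches. The GDF15 match at chr19:18386186-18386205, the SESN1 match at chr6:109009018-109009037 and the ZMAT3 match at chr3:179071867-179071892 had 3 each, the last with a spacer of 6 bases. The matches of the other 4 genes began 49 to 122 bases before the start site of their window. That of GDF15 began 28 bases after its start site, within the transcript. MDM2 had 4 windows, FAS 3, SESN1 3 and ZMAT3 2, and these 4 matches lay inside the RefSeq gene spans, not before them. The span of FAS is chr10:88964050-89017059 and that of SESN1 chr6:108984309-109094846. A site of this kind was present in 12.8% of the 35116 windows and for 15.3% of the 27305 symbols with a window. Of the 16 windows of the 8 genes, 6 held one, and a gene with several windows can match in any of them. No match was found in the single windows of CDKN1A, TP53I3 and BTG2, which says only that these letters are not within those 300 bases.

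In the inputs, 2 of the 9 genes differed between the lines past the threshold, an adjusted p under 0.05, and both were lower in A549/DDP. These were GDF15, a secreted stress cytokine, and BTG2, an antiproliferative protein that brings the mRNA deadenylation machinery to its targets. None was higher. Among all 16406 genes tested, 14.9% differed, 8.00% lower and 6.85% higher. Of the 9 genes, 3 had an unadjusted p under 0.05, as did 32.7% of all genes tested. The median log2 fold change of the 9 genes, A549/DDP relative to A549, was -0.60, with 6 below 0 and 3 above, against a median of -0.0016 over all genes tested. All values are CPM scaled by TMM, tested with edgeR's quasi-likelihood method and adjusted over every tested gene by Benjamini-Hochberg, and for bulk RNA fewer expressing cells and less RNA per cell cannot be told apart.

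MDM2 stood at 158 and 136 CPM in A549 replicates 1 and 2 and at 97.9 and 82.4 CPM in A549/DDP. Both A549/DDP libraries lay below both A549 libraries. The level was 1.63-fold lower (log2 fold change -0.71 ± 0.19 SE, edgeR adjusted p = 0.0579), which missed the threshold. The log2 fold change was -0.61 without A549 replicate 1 and -0.83 without A549 replicate 2. It was -0.86 without A549/DDP replicate 1 and -0.60 without A549/DDP replicate 2. Each of these fits leaves 1 library in a line and so holds no spread within that line.

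Of the genes that halt proliferation, CDKN1A encodes p21, the inhibitor of cyclin-dependent kinases through which p53 arrests the cycle. It was read at 369 and 196 CPM in A549 and at 183 and 186 CPM in A549/DDP. The groups did not overlap, but A549 replicate 2 stood close to both resistant libraries, with an SD of 122 CPM over the A549 libraries and 2.49 CPM over those of A549/DDP. The difference did not pass the test (log2 fold change -0.61 ± 0.30 SE, edgeR adjusted p = 0.220), and 1 library set its size. Without A549 replicate 1 the log2 fold change was -0.10, and without A549 replicate 2 it was -1.01. Each of these fits leaves 1 A549 library and so holds no spread within A549.

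BTG2 was at 77.1 and 51.4 CPM in A549 and at 27.8 and 26.5 CPM in A549/DDP, so the lower A549 library stood well above both resistant ones. It fell 2.37-fold (log2 fold change -1.24 ± 0.27 SE, edgeR adjusted p = 0.0339). With fewer libraries the call was lost without A549 replicate 1, A549/DDP replicate 1 or A549/DDP replicate 2, at edgeR adjusted p = 0.0741, 0.0700 and 0.0786, with log2 fold changes from -1.30 to -0.94.

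GDF15, a member of the TGF-beta superfamily released by stressed cells, was at 65.9 and 47.3 CPM in A549 and at 25.6 and 17.3 CPM in A549/DDP. All values of the resistant line were below those of A549. It fell 2.64-fold, the largest change of the 9 genes (log2 fold change -1.40 ± 0.31 SE, edgeR adjusted p = 0.0354). Without A549/DDP replicate 2 the log2 fold change was -1.15 and the edgeR adjusted p was 0.0899.

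Of the genes tied to cell death, FAS is the death receptor that starts the extrinsic caspase pathway. It stood at 21.3 and 10.7 CPM in A549 and at 9.99 and 12.4 CPM in A549/DDP, and the groups overlapped (log2 fold change -0.51 ± 0.48 SE, edgeR adjusted p = 0.539). TP53INP1 takes part in p53-driven apoptosis and in autophagy. Its levels were 15.7 and 6.83 CPM in A549 and 23.9 and 18.7 CPM in A549/DDP, without overlap and with the resistant line above (log2 fold change 0.92 ± 0.49 SE, edgeR adjusted p = 0.261). ZMAT3, an RNA-binding zinc finger protein, was at 13.6 and 11.6 CPM in A549 and at 14.8 and 22.1 CPM in A549/DDP. Here the highest A549 value and the lowest of A549/DDP nearly met (log2 fold change 0.55 ± 0.39 SE, edgeR adjusted p = 0.406).

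Of the metabolic targets, TP53I3 encodes a quinone oxidoreductase linked to oxidative stress. It was at 102 and 93.4 CPM in A549 and at 50.1 and 78.6 CPM in A549/DDP. Both resistant libraries were below both A549 libraries, but they differed from each other by more than A549/DDP replicate 2 differed from A549 (log2 fold change -0.60 ± 0.26 SE, edgeR adjusted p = 0.169). SESN1, a sestrin that restrains mTORC1 signalling, was at 12.1 and 6.12 CPM in A549 and at 6.34 and 13.2 CPM in A549/DDP. The ranges of SESN1 nearly coincided (log2 fold change 0.10 ± 0.62 SE, edgeR adjusted p = 0.943).

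Counted over the 9 genes, both A549/DDP libraries were below both A549 libraries for 5 (CDKN1A, MDM2, GDF15, TP53I3 and BTG2) and above for 2 (ZMAT3 and TP53INP1). Over all genes tested, 32.7% lay below in this sense and 29.7% above.

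**Figure D1:**
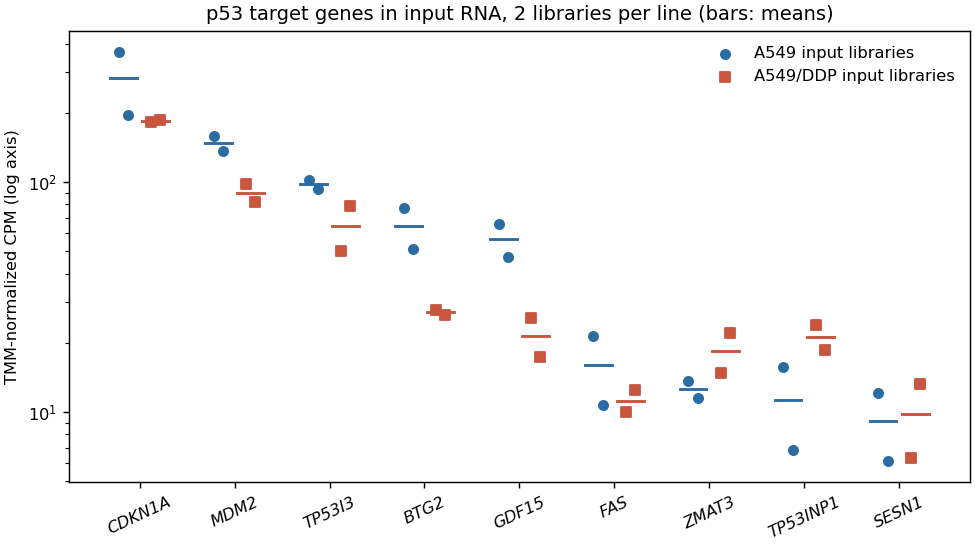
Level of each of the 9 p53 target genes in the 4 input libraries, as TMM-scaled CPM on a log axis, with 1 point per library and a bar at the mean of each line. GDF15 and BTG2, the genes that passed the test, show 2 separate pairs of points, whereas CDKN1A has 1 high A549 library at 369 CPM and 3 libraries between 183 and 196 CPM, and the points of FAS and SESN1 overlap.

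The spread between the A549 replicates ran in 1 direction for these genes. All 9 were higher in A549 replicate 1 than in replicate 2, by a median of 0.58 on the log2 scale and a range of 0.13 to 1.14. Over all genes tested, 52.3% were higher in replicate 1, with a median difference of 0.03. In A549/DDP 4 of the 9 were higher in replicate 1. Left without A549 replicate 1, the median log2 fold change of the 9 genes was -0.10, in place of -0.60. The part of this difference between A549 libraries in the comparison of the lines was not tested beyond these values.

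Levels can be set side by side between genes only per length, as transcripts per 1000000 (TPM, mean ± SD, n = 2 libraries). In A549, CDKN1A was the most abundant at 215 ± 71.9 TPM. TP53I3 at 125 ± 9.70 and MDM2 at 119 ± 12.1 TPM followed, and their libraries overlapped. GDF15 stood at 80.0 ± 10.4, BTG2 at 37.8 ± 7.09 and FAS at 17.1 ± 5.52 TPM, each apart from its neighbours in the order. SESN1 at 5.71 ± 1.62, ZMAT3 at 3.98 ± 0.594 and TP53INP1 at 3.08 ± 1.46 TPM closed the order, differing by about their spread. In A549/DDP, CDKN1A at 141 ± 1.42 TPM was again the highest, and MDM2 at 96.6 ± 16.6 overlapped with TP53I3 at 83.8 ± 30.2 TPM. GDF15 at 30.8 ± 8.03 and FAS at 21.03 ± 3.71 TPM were next, with FAS now listed above BTG2 at 16.2 ± 0.410 TPM. SESN1 at 11.5 ± 7.59, ZMAT3 at 7.43 ± 4.37 and TP53INP1 at 5.98 ± 0.997 TPM overlapped with one another.

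For some of these genes the size or the sign of the difference changed with the unit. TPM uses the transcript length that the authors' tables assign to a gene, averaged over its isoforms by abundance. For some genes this length was not the same in both lines, and its part in the change was not tested. For MDM2 this length was 2188 and 1890 bases in A549 and 1511 and 1637 bases in A549/DDP. For FAS it was 1578 and 1461 bases against 769 and 1180 bases, and for SESN1 2671 and 2341 against 1716 and 1347 bases. In all 3 genes the lengths of the resistant line were below those of A549 without overlap. ZMAT3 spread widely within A549/DDP, at 2282 and 8031 bases beside 4596 and 5481 bases in A549, while GDF15, BTG2 and TP53INP1 had 1 length in all 4 libraries. None of the length differences passed a limma test on log2 length with adjustment over the 13455 genes whose length varied: the log2 change was -0.37 for MDM2 (adjusted p = 0.510), -0.67 for FAS (adjusted p = 0.586) and -0.72 for SESN1 (adjusted p = 0.429). That limma test called 0 of the 13455 genes, of which 1333 had an unadjusted p under 0.05.

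On the log2(TPM + 1) scale the FAS difference was 0.31 (limma adjusted p = 0.651), above 0, whereas in counts it was -0.51. The MDM2 difference was -0.30 (limma adjusted p = 0.463), smaller than the -0.71 in counts. GDF15, whose length was constant, was at -1.37 (limma adjusted p = 0.0431) and BTG2 at -1.16 (limma adjusted p = 0.0815). On this scale 1 of the 9 genes, GDF15, was past the threshold, and it was not with a pseudocount of 0.1 (limma adjusted p = 0.0528) or without a filter (limma adjusted p = 0.122). Since the test changed together with the unit, and BTG2 has 1 length in all libraries, these calls do not show an effect of length alone.

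**Figure D2:**
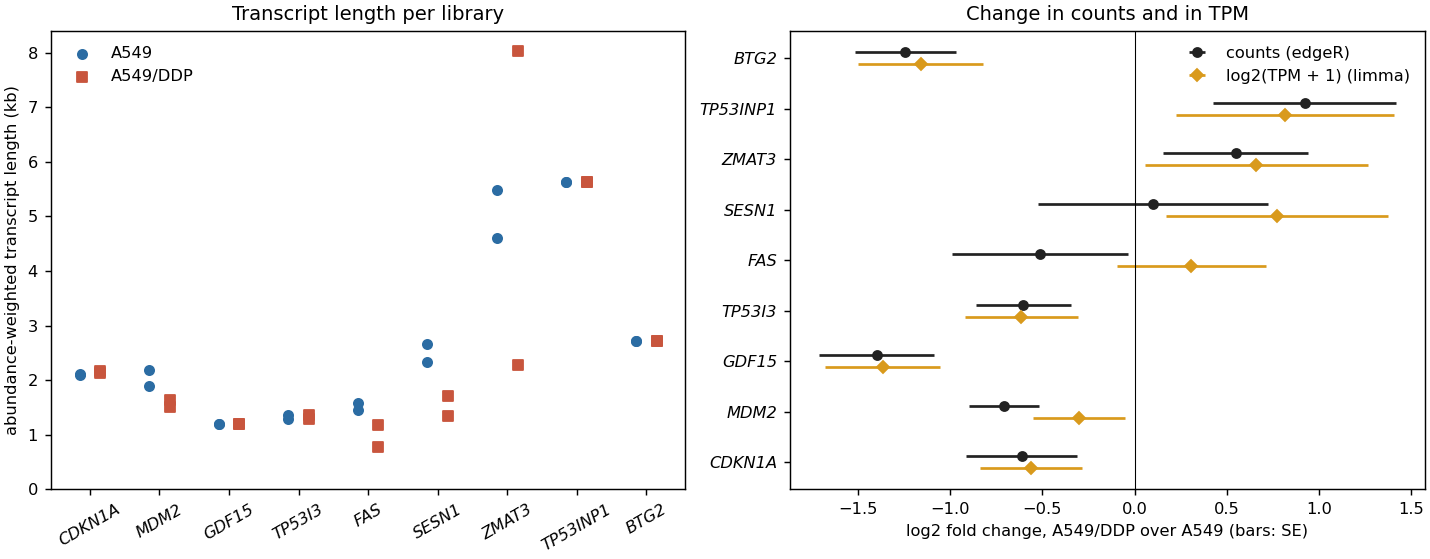
Left, abundance-weighted transcript length in kilobases of the 9 genes, 1 point per input library. Right, the log2 fold change of each gene, A549/DDP relative to A549, in counts (edgeR, circles) and in log2(TPM + 1) (limma, diamonds), with bars of 1 SE. FAS sits at -0.51 in counts and 0.31 in TPM, and MDM2 at -0.71 and -0.30, while GDF15 at -1.40 and -1.37 hardly moves.

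The other p53 targets were read from 5 lists by role, 54 genes in all, of which 53 were tested. In A549/DDP 12 of the 53 were lower and 5 higher by edgeR, the rest did not pass, and the median log2 fold change was -0.49. Over all genes tested 8.00% were lower and 6.85% higher, with a median of -0.0016, and the counts by role that follow are to be read against these shares. As for the 9 genes, most were higher in A549 replicate 1 than in replicate 2, 38 of 53 with a median difference of 0.39. Epithelial markers, summed, moved with the line as well, from 2954 and 5243 CPM in A549 to 11138 and 10803 CPM in A549/DDP. KRT8 and KRT18 made up most of this sum, while 2 of the 5 markers, KRT19 and EPCAM, had log2 fold changes below 0 that did not pass. The part of these markers in the differences was not tested.

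Of 11 further arrest and feedback genes, 2 fell and 1 rose. GADD45A, a stress sensor that interferes with the G2 to M transition, was at 1137 and 430.3 CPM in A549 and at 28.0 and 29.8 CPM in A549/DDP, a 27.1-fold fall (log2 fold change -4.76 ± 0.49 SE, edgeR adjusted p = 0.00459). Without A549 replicate 1 its log2 fold change was -3.91. PLK2, a polo-like kinase, fell 5.22-fold (edgeR adjusted p = 0.00273). SFN, the 14-3-3 sigma protein that holds cyclin B complexes in the cytoplasm, rose 3.88-fold (edgeR adjusted p = 0.00321). The phosphatase PPM1D, which dampens p53 signalling, had a log2 fold change of -0.99 (edgeR adjusted p = 0.108), and CCNG1, cyclin G1, of 0.68 (edgeR adjusted p = 0.130). Within this role, called genes thus moved in both directions.

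Of 14 apoptosis genes tested, 5 fell and 1 rose. PMAIP1, the BH3-only protein NOXA, fell 4.86-fold (edgeR adjusted p = 0.0189). TNFRSF10B, the TRAIL death receptor DR5, went from 616 and 424 CPM to 205 and 134 CPM, a 3.08-fold fall (edgeR adjusted p = 0.0171). TNFRSF10D, a decoy receptor for TRAIL that carries no complete death domain, rose 3.24-fold, from 23.9 and 18.1 CPM to 69.2 and 66.6 CPM (edgeR adjusted p = 0.0110). AEN, an apoptosis-enhancing nuclease, fell 2.81-fold (edgeR adjusted p = 0.0227). BAX, the effector that opens the mitochondrial outer membrane, was at 86.1 and 58.4 CPM beside 69.0 and 68.3 CPM, overlapping (log2 fold change -0.07, edgeR adjusted p = 0.887). BBC3, the BH3-only protein PUMA, had a log2 fold change of -0.69 (edgeR adjusted p = 0.156). TP53AIP1 was at 0 in all 4 libraries and was not tested.

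Of 7 genes of repair and nucleotide supply, 1 rose and none fell. PCNA, the sliding clamp of DNA polymerases, rose 3.30-fold, from 121 and 116 CPM to 378 and 405 CPM (edgeR adjusted p = 0.00353). DDB2, which recognises UV-damaged DNA, was at 137 and 93.1 CPM in A549 and 47.9 and 75.8 CPM in A549/DDP (log2 fold change -0.89, edgeR adjusted p = 0.102). Of 12 metabolic, antioxidant and autophagy genes, 3 fell and 2 rose. DRAM1, a lysosomal regulator of autophagy, went from 85.4 and 39.4 CPM to 13.6 and 14.3 CPM, a 4.47-fold fall (edgeR adjusted p = 0.0218). Without A549 replicate 1 the log2 fold change of DRAM1 was -1.51, in place of -2.16. SESN2, the sestrin paralogue of SESN1, fell 4.11-fold (edgeR adjusted p = 0.0117). STEAP3, a ferrireductase, rose 2.65-fold (edgeR adjusted p = 0.0430, and 0.0732 without A549/DDP replicate 1) and GPX1, a glutathione peroxidase, 2.35-fold (edgeR adjusted p = 0.0157). PCNA and GPX1 have processed pseudogenes whose reads the counting could have shared with them. Of 9 secreted and surface genes, 2 fell and none rose. LIF, a cytokine of the interleukin-6 family, fell 2.94-fold, from 368 and 325 CPM to 109.9 and 126 CPM (edgeR adjusted p = 0.00542).

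**Figure D3:**
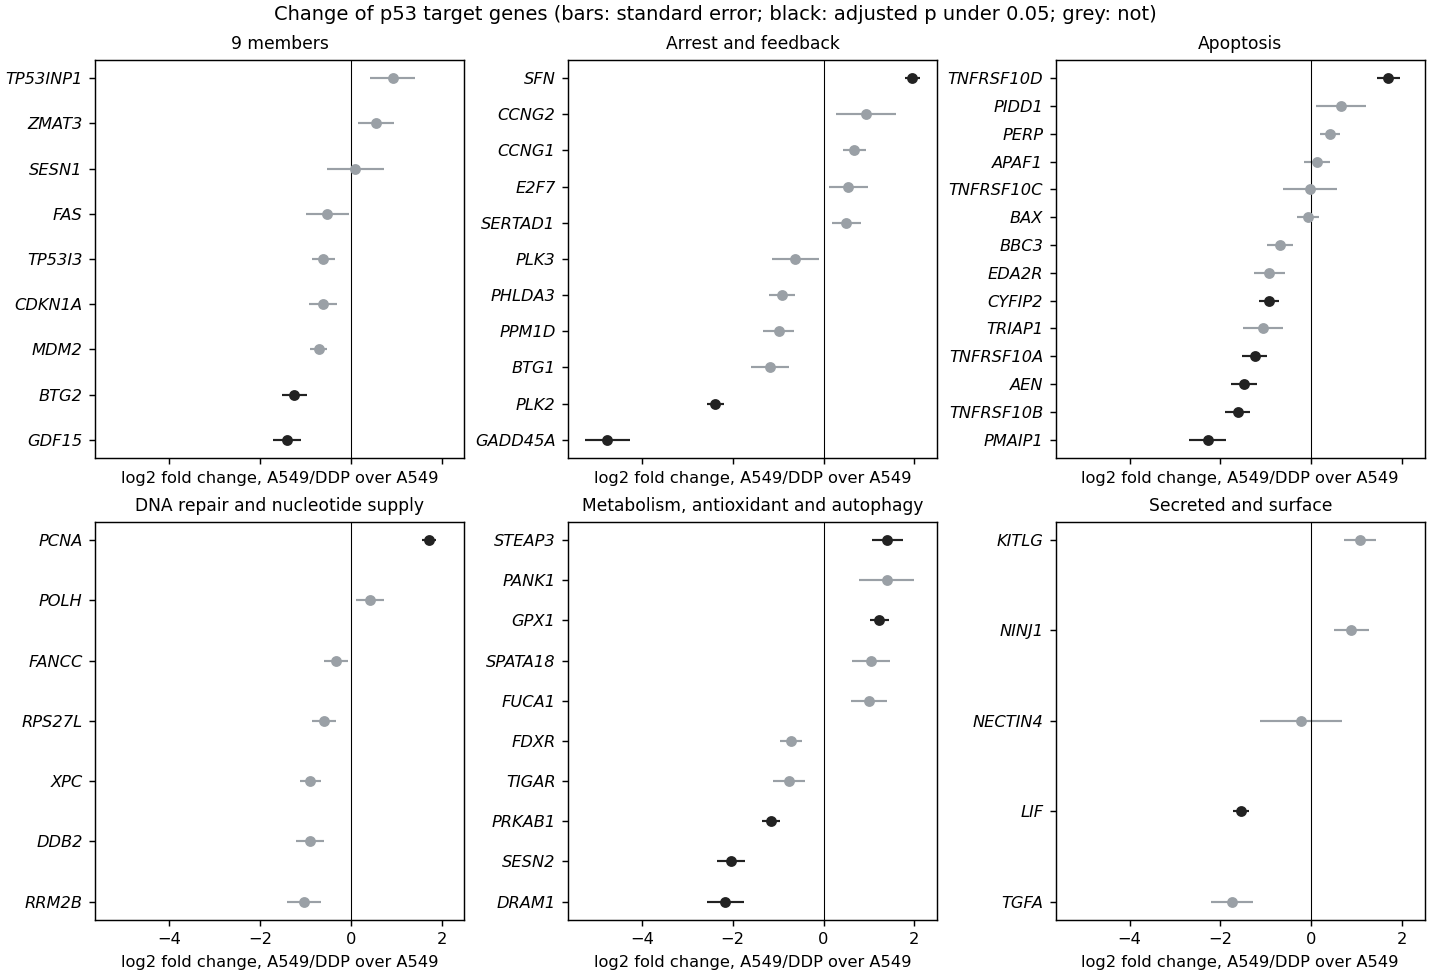
Log2 fold change, A549/DDP relative to A549, of p53 target genes by role, with bars of 1 SE and black points for genes past an edgeR adjusted p of 0.05 (grey, not past it). Genes with a mean of at least 5 CPM over both lines are drawn except 1, which are 47 of the 53 tested in the wider lists and all 9 genes followed here. GADD45A at -4.76 and PLK2 at -2.38 stand lowest among those drawn, and SFN at 1.96 and PCNA at 1.72 are among the highest.

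Among 13 tested genes listed here for regulating p53, apart from the target lists, 2 fell and none rose. Over all genes tested 8.00% fell and 6.85% rose. MDM4, the partner of MDM2 that masks the p53 transactivation domain, was at 72.2 and 54.7 CPM in A549 and 25.3 and 12.1 CPM in A549/DDP, a 3.40-fold fall (log2 fold change -1.76 ± 0.40 SE, edgeR adjusted p = 0.0369, and 0.0504 without A549/DDP replicate 2). Without A549/DDP replicate 1 the log2 fold change of MDM4 was -2.41. Its assigned transcript length went the other way, from 2691 and 2622 bases to 9432 and 8084 bases, a log2 change of 1.72 that did not pass the length test (limma adjusted p = 0.181). Per length the fall was larger, from 40.4 and 36.2 TPM to 4.18 and 2.35 TPM (limma log2 fold change -3.24, adjusted p = 0.0125). CREBBP, an acetyltransferase that acts as a p53 coactivator, fell 3.56-fold (edgeR adjusted p = 0.00431). Genes that p53 lowers indirectly, through p21 and the DREAM repressor complex, are mostly mitotic. Of 10 such genes 4 fell and none rose, with a median log2 fold change of -0.76, where 8.00% of all genes tested fell and their median was -0.0016. They were BUB1, a spindle checkpoint kinase, at -1.43 (edgeR adjusted p = 0.0146), BIRC5, survivin, at -1.34 (edgeR adjusted p = 0.0110), CCNB2, cyclin B2, at -1.07 (edgeR adjusted p = 0.0207) and AURKA, a mitotic kinase, at -0.80 (edgeR adjusted p = 0.0408). CCNB2 and AURKA were above the threshold without either A549/DDP library, at edgeR adjusted p from 0.0726 to 0.200.

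By the distance between centred log2 levels over the 4 libraries, the genes of the wider list nearest to CDKN1A were TIGAR (0.210), RPS27L (0.219) and PHLDA3 (0.323). Nearest to MDM2 were BBC3 (0.147), FDXR (0.221) and CYFIP2 (0.409), and nearest to GDF15 were TNFRSF10B (0.248), AEN (0.344) and PRKAB1 (0.490). A distance of 0 would mean the same pattern, and with 4 libraries of 2 lines the order is only a description.

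For m6A the authors deposited called peaks with a p-value and no level, so that peaks were counted and not compared in height. The lists held 26320 and 14576 peaks for A549 replicates 1 and 2 and 27244 and 10661 for A549/DDP replicates 1 and 2, and the depth of these libraries is unknown. The 9 genes carried 53 peaks, 12 and 5 in A549 and 29 and 7 in A549/DDP. Merged where exon blocks shared a base on the same strand, they formed 29 regions, of which 4 were called in all 4 libraries, 2 in 3, 4 in 2 and 19 in 1. Of these 19, 18 came from A549/DDP replicate 1 and 1 from A549 replicate 1. These lists were close in length, with 27244 peaks over 7001 genes and 26320 peaks over 7578 genes. The same split over all regions of the lists is not given here, so for these genes it is only a description. MDM2 held 11 of the 18 and FAS 5. Of the 9 genes 6 had a peak in any list, where 57.0% of all genes tested for expression did, and 3 had one in all 4 lists, where 13.9% did.

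The genes called in every list were GDF15, TP53I3 and BTG2. GDF15 lies at chr19:18386158-18389176 on the plus strand of hg38, and its peaks merged into 1 region, chr19:18386161-18389176, that spans almost the whole gene. Within it 1143 to 1292 exon bases lay in peaks in 3 of the libraries and 1044 in A549/DDP replicate 2, at p-values between 4.8e-06 and a value listed as 0. The promoter-proximal p53 match of GDF15 printed above falls inside the outer bounds of this region. TP53I3, at chr2:24077433-24084834 on the minus strand, had regions in all 4 lists at chr2:24077482-24079508, which ends 49 bases before the end of the gene, and at chr2:24079607-24084191. BTG2, at chr1:203305519-203309602, had a region in all 4 lists at chr1:203305589-203307879. A further BTG2 region at chr1:203308224-203308470 was called in both A549/DDP lists and in neither A549 list, at p-values of 3.2e-08 and 0.0095. The value 3.2e-08 is listed for all 4 BTG2 peaks of A549/DDP replicate 2 and is not particular to this region. It was the single region of the 9 genes with that pattern, and there was none with the opposite one. The shares of all regions with either pattern are not given here.

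CDKN1A, at chr6:36676463-36687332, had 4 peaks in A549 replicate 1 and 4 in A549/DDP replicate 1, and none in the shorter list of either line. Of its regions, 3 were shared by these libraries, at chr6:36684136-36684536, chr6:36686589-36686839 and chr6:36687139-36687339, the last running 7 bases past the annotated end of the gene. MDM2, at chr12:68808172-68850686, had 11 peaks covering 2855 exon bases in A549/DDP replicate 1, between chr12:68824421 and chr12:68843952, all with the p-value 3.2e-07, and none in the other 3 lists. FAS, at chr10:88964050-89017059, had 5 peaks with the p-value 1.1e-06, also in A549/DDP replicate 1 alone. Of all genes tested for expression, 6.64% had peaks in that list alone, so these calls rest on 1 library of 4 and were not repeated in A549/DDP replicate 2.

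No peak was listed for SESN1, ZMAT3 and TP53INP1 in any library. Their input levels were between 6.12 and 23.9 CPM. FAS, at 9.99 to 21.3 CPM, lay in the same range and had 5 peaks, all in A549/DDP replicate 1. The part of the level in the absence of peaks was not tested. Of all genes with a mean under 25 CPM, 39.5% had a peak in any list and 5.89% in all 4, against 80.8% and 24.7% of those at 25 CPM or more. Both A549 lists called a peak in 3 of the 9 genes and both A549/DDP lists in 3, where 27.1% and 19.5% of all genes tested had one.

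**Figure D4:**
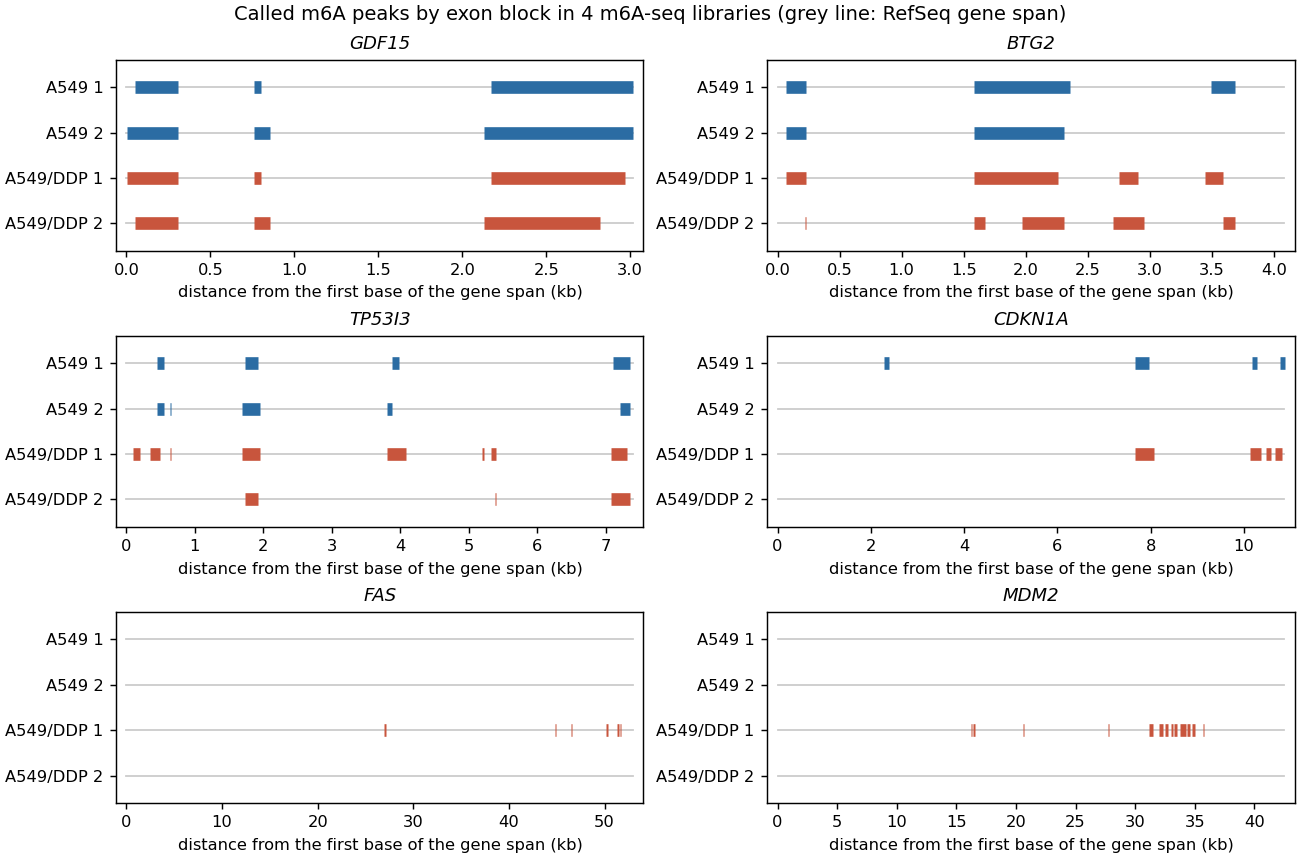
Exon blocks of the called m6A peaks of the 6 p53 target genes with any peak, by distance in kilobases from the first base of the gene in the direction of transcription, with 1 row for each m6A-seq library and the grey line marking the gene span. Very narrow blocks are widened so that they stay visible. GDF15, TP53I3 and BTG2 have blocks in all 4 rows, CDKN1A in the rows of both replicates 1, and MDM2 and FAS in A549/DDP replicate 1 alone.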

How the data were processed

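The 4 input libraries of A549 and A549/DDP and the 4 m6A-seq libraries were grouped by the sample labels. The submitters' processing notes name STAR, RSEM, bedtools and hg38, without versions or roles. Libraries were made by a strand-specific dUTP method, and whether the counting used strand is not given in the sources used here. For each input the authors deposited expected counts, which are estimates and not normalized, with TPM and FPKM, which they scaled for transcript length and library size, and the abundance-weighted transcript length. The deposited p-value of each m6A peak may be raw or adjusted, which the lists do not say. For A549 m6A-seq the deposited names carry the replicate numbers the other way round from the labels, which were followed.

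Rounded expected counts passed through filterByExpr and TMM scaling, and edgeR 4.0.16 in R 4.3.3 compared the lines unpaired, 2 against 2, with its quasi-likelihood test. P-values were adjusted by Benjamini-Hochberg over 16406 genes. The SE is the size of the log2 fold change over the square root of F, an approximation. DESeq2 1.42.0 and limma 3.58.1 on log2 TPM or FPKM were alternatives, and the limma test of transcript length was chosen after values were seen. Gene identifiers were matched to symbols for 56948 of 58037, and symbols to RefSeq loci and promoter windows of GRCh38.p14. Peaks were merged where exon blocks shared at least 1 base. Scripts were tested on simulated data. Python 3.11.15, numpy 2.4.6, pandas 2.3.3, scipy 1.17.1 and matplotlib 3.10.9 were used.

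The members and lists were chosen with earlier results of these data known. All 9 genes are named, as are MDM4, BAX, BBC3, DDB2, SESN2, PPM1D and CCNG1 whatever their value. Of each other list at most 4 genes are named, those past the threshold with the largest change, and the 3 genes nearest in pattern to CDKN1A, MDM2 and GDF15. Some genes of the pathway are not reported here. The YTHDF1 RIP-seq libraries were not analysed here.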

Additional observations from a re-analysis of the deposited data

How the results depend on the processing

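The limits are those of 2 libraries a line and of peak lists without depth. Of 544 recomputed values for single genes, 422 kept their direction and side of the threshold, 78 lost the call, 20 gained it and 24 changed sign. GDF15 passed under 9 of 12 alternatives other than leaving out a library, BTG2 under 6, MDM2 under 5 and CDKN1A under 1. Whether the replicate numbers pair the libraries is not known. The log2 differences of replicate 1 from replicate 2 in the 2 lines correlated at 0.02 over all genes tested, which cannot exclude a shared preparation. With the number as a replicate block 3 of the 9 genes were called, the third being MDM2 (edgeR adjusted p = 0.0281), with 25 genes of the wider list, 3536 of all genes and a median log2 fold change of -0.54 for the 9. DDB2 and PPM1D each passed under 4 of the 12 alternatives, among them the block and DESeq2 (DESeq2 adjusted p = 0.0253 and 0.0415). The others were edgeR without a filter beyond 1 count and edgeR with at least 10 counts in every library.

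Of the 9 genes, edgeR without a filter beyond 1 count called 4, limma on log2(TPM + 1) and on log2(FPKM + 1) 1 each, and none was called by edgeR with both pairs of A549 inputs (3 at an unadjusted p under 0.05), by limma on log2(TPM + 0.1) (2) or by limma on log2(TPM + 1) without a filter (2). Of the wider list, 28, 5, 11 and 0 were called without a filter, with both pairs, with log2(TPM + 0.1) and with unfiltered TPM (24 at an unadjusted p under 0.05 in limma), in place of 17. Of all genes, 4312 were called by DESeq2, 4010 without a filter, 3758 with the second pair, 677 with both pairs, 1492 and 1177 by limma with a pseudocount of 1 and 0.1, and 0 without a filter (4519 at an unadjusted p under 0.05), in place of 2437. Leaving out each library in turn, which assumes that the lone library varies like the other line, gave 0 to 4 of the 9 genes, 14 to 31 of the wider list and 2052 to 3809 of all genes. The median of the 9 was -0.83 to -0.10, lowest in size without A549 replicate 1. Without A549/DDP replicate 2 edgeR called 0 of the 9, and without A549 replicate 2 it called 4 of the 9, 31 of the wider list and 3809 genes.

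With the second pair, which moved the median of all genes to 0.80, log2 fold changes changed sign for CDKN1A (0.072), TP53I3 (0.62), TP53INP1 (-1.11), BAX (0.13), BBC3 (2.24), SESN2 (0.36), PPM1D (0.58), TNFRSF10B (0.81) and LIF (0.43). FAS was at 0.31 with log2(TPM + 1), filtered or not, 0.32 with log2(TPM + 0.1) and 0.35 with FPKM. BAX was at 0.062 on each TPM scale and 0.12 with FPKM, and CCNG1 at -0.011 on each TPM scale. Leaving out libraries moved FAS from -0.94 to 0.054, SESN1 from -0.53 to 0.66 and BAX from -0.34 to 0.22, with the sign changed without A549 replicate 1 for FAS and BAX and without replicate 2 of either line for SESN1. Without A549 replicate 2, DDB2 (edgeR adjusted p = 0.000247) and PPM1D (0.00436) passed, and PPM1D also without A549/DDP replicate 2 (0.0426). The cause was not tested.

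For peaks at p-values of at most 1e-05, 1 of the 9 genes was called in both A549 lists and 2 regions in both A549/DDP and neither A549 list. These 2 regions were in TP53I3, whose A549 peaks, listed at p-values of 0.00016 to 0.0022, were removed by this cut. The BTG2 region with that pattern in the full lists was not among them, as its A549/DDP replicate 1 peak was listed at 0.0095. With lists of equal size, 10661 peaks, no gene was called in both A549 lists. Leaving out libraries gave 1 to 19 regions called in A549/DDP and not in A549, 19 without A549/DDP replicate 2, and 0 to 1 of the opposite pattern, with 3 to 6 genes in both A549/DDP lists and 3 to 4 in both A549 lists. A 50% overlap changed none of these counts by over 1.5 times.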

Other observations

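The 2 further A549 inputs were shallow, with 211799 and 256064 expected counts outside mitochondrial genes, and their values are given per 1000000 of these with exact Poisson intervals at 95% that cover counting error only. MDM2 was read there at 56.1 and 40.2 counts, 265 (200 to 343) and 157 (112 to 213) per 1000000, beside 148 and 140 per 1000000 in the first A549 pair. CDKN1A was at 24 and 18 counts, 113 (72.6 to 169) and 70.3 (41.7 to 111) per 1000000, beside 344 and 201.1 per 1000000 in the first pair. The intervals of CDKN1A lay below both values of the first pair, while those of MDM2 reached them in the second library and not in the first.

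GDF15 was at 9 and 10 counts, 42.5 (19.4 to 80.7) and 39.1 (18.7 to 71.8) per 1000000, beside 61.5 and 48.6 per 1000000, and the intervals held both values. The remaining genes had at most 7 counts in either library. ZMAT3 was at 1 and 0 counts. The interval of the 0 counts reaches 14.4 per 1000000, and holds the 12.7 and 11.9 per 1000000 of the first pair.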
